A study of Mus musculus with 8 samples.

Results

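Immediate early gene high fibro-adipogenic progenitors (FAPs) were taken as the cells with the largest share of transcripts from 6 genes, Egr1, Fos, Junb, Ier2, Btg2 and Zfp36, in each of 2 single-cell libraries from mouse muscle. The dysferlin knockout (KO) library gave 215 such cells out of 1435 ranked cells and 1724 deposited cell barcodes. The wild type (WT) library gave 230 out of 1533 ranked cells and 2073 deposited barcodes. The members therefore number 445 of 2968 ranked cells and 3797 barcodes in all. A cell was ranked if it had at least 500 detected genes, at most 10% of its unique molecular identifiers (UMIs, counted transcript molecules) from mitochondrial genes, and at least 1 UMI of Pdgfra, the receptor used to sort FAPs. Members are the top 15% of each library, and they are set against the bottom 50% of the same library, 717 KO and 766 WT cells.

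Both groups are female mice aged 8 months. KO mice lack dysferlin, a protein that reseals torn muscle fibre membranes. Their strain is spelled BLA/J in one label and B6A/J in the protocol, while the WT mice are C57BL/6. Hindlimb and psoas muscles were digested with collagenases and dispase at 37 °C for 30 and then 60 minutes, and live PDGFRα-positive cells were sorted before capture on the 10x Genomics 3′ v3 platform. Each group lists 4 samples but was deposited as 1 pooled matrix with no map from cells to samples, so each group is 1 library. No test between groups is possible, all intervals cover counting error only, and genotype, strain and library cannot be told apart.

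Immediate early genes are the first genes a cell transcribes after a growth factor, cytokine, mechanical or stress signal, because the factors that switch them on are already present and need only be modified. Many encode transcription factors. Fos and Jun family proteins pair to form AP-1, Egr1 is a zinc finger activator, and the products of Btg2 and Zfp36 speed the shortening and decay of mRNA, which helps make the response brief. In FAPs, stromal cells that support muscle repair and can turn into fat or matrix-forming cells, this programme is known both as part of activation after injury and as a change that warm enzymatic digestion can bring about. No undigested sample was measured here, so the part of the digestion was not tested.

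The DNA just upstream of these genes is given to show response elements of the kind such signals act through. The sequences come from RefSeq on GRCm38.p6, the assembly also called mm10, end at the base before the annotated start, and run 5′ to 3′ on the gene's strand. Capitals mark TGACG in either direction (the core of the cyclic AMP and ATF response element), TATAAA (the TATA box) and the kappaB site (bound by NF-kappaB). Fos, Junb and Btg2 are shown because they helped choose the members, and Nr4a1 and Cxcl1 because they were among the highest of the other genes. The windows are chr12:85473770-85473889 (+) for Fos, chr8:84978749-84978868 (-) for Junb, chr1:134079156-134079335 (-) for Btg2, chr15:101266666-101266845 (+) for Nr4a1 and chr5:90891125-90891244 (+) for Cxcl1. The Nr4a1 window lies inside the gene as GENCODE draws it, upstream of the start of a shorter transcript, and overlaps no annotated exon.
Fos: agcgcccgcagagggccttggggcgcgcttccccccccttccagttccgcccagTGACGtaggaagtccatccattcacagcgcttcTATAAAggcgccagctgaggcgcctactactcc
Junb: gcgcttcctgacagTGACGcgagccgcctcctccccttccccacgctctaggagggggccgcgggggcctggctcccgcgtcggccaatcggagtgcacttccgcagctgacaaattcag
Btg2: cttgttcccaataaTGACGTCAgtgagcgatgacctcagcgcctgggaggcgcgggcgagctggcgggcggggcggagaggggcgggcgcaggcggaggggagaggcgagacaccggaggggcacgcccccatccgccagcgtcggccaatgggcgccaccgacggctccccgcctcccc
Nr4a1: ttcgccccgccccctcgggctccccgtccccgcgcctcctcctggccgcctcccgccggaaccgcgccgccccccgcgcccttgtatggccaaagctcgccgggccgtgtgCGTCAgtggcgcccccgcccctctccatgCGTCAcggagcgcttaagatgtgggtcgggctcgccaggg
Cxcl1: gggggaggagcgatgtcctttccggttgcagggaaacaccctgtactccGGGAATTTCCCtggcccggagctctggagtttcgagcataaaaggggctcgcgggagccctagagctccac

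Searched over the 250 bases before the start, TGACG was present for 3 of the 4 chosen genes with a RefSeq promoter (Btg2, Fos and Junb, not Zfp36). Among the 15 genes outside the rule with the highest mean ratio, described further on, 11 had a promoter and 7 of those held TGACG. Of the 15 genes with the lowest mean ratio, 12 had a promoter and 2 held it. Over all 27025 genes with a promoter the share was 19.8%. The full palindrome TGACGTCA, which contains TGACG on both strands, stood in the Btg2 and Has1 promoters and in 1.77% of all genes. A kappaB site was found for 3 of the 11 (Cxcl1, Fosb and Ier3), against 4.46% of all genes. Taking every gene at least 2-fold higher in the members of both libraries, 56 of 72 had a promoter, 42.9% of them with TGACG and 17.9% with a kappaB site. The CArG box, where serum response factor binds, appeared in the Zfp36 window and in 1.62% of all genes, but in 0 of the 11 and 0 of the 56. Egr1 and Ier2 had no promoter to search. Boxes farther than 250 bases upstream would be missed, so the search cannot show that a gene lacks one. Several genes have more than 1 listed start and were counted once, and these matches are letters in a window, not measured binding.

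KO cells were deeper than WT cells, with medians of 12717 and 9177 UMIs per ranked cell. Within each library the members were slightly shallower than the cells they are set against, at 11782 UMIs for members and 12852 for the bottom 50% in KO, and 8859 and 9294 in WT. The median mitochondrial share was 2.83% in members and 2.85% in the bottom 50% of KO, and 3.17% and 3.22% in WT. Thinned to 3000 UMIs, members had a median of 1382 detected genes in KO and 1350 in WT, against 1430 and 1392.5 in the bottom 50%; this left out 12 members and 34 bottom cells in KO, and 25 and 50 in WT. Without thinning the medians were 3444 and 3626 genes in KO, and 2792 and 2898 in WT. Both libraries held 13 identical barcodes, 2 of them among ranked cells and 0 among members. Scrublet marked 1 KO and 2 WT ranked cells as doublets, 0 of them members, too few to say that the caller worked on these pulse-width gated cells.

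The members carried the FAP identity that the sort and the filter select. The 10 FAP markers summed to 57382 CPM (UMIs of a gene in every 1000000 UMIs outside the 6 rule genes) in KO members and 57912 in the KO bottom 50%, and to 62366 and 62554 CPM in WT, with 0 of the 10 markers undetected. The sums hide falls of single markers, as 2 of the 10 in KO and 3 in WT had a higher level in members. Gsn was among these, at 17330 CPM in KO members and 14944 in the KO bottom 50%, and at 29258 and 27105 CPM in WT. Pdgfra itself, 1 UMI of which the filter required, stood at 509 and 518 CPM in KO and 535 and 499 CPM in WT. The 8 markers for T or NK cells were all at 0 in members of both libraries. Of the 7 satellite cell markers, Pax7, Myf5, Myod1, Myog and Cdh15 were at 0 too, while Vcam1 and Des were detected. A count of 0 allows up to 1.12 CPM in KO and 1.47 CPM in WT members. Vcam1 stood at 95.68 CPM in KO members and 76.04 in the KO bottom 50%, and at 40.99 and 24.55 CPM in WT. Des had a log2 ratio of members over the bottom 50% of -1.40 in KO and 0.091 in WT. Endothelial, mural, macrophage, satellite cell, myofibre and Schwann cell lists each summed to less than 100 CPM in members. Only the tenocyte list was sizeable, at 1013 CPM in KO members, 919 in the KO bottom 50%, 950 in WT members and 585 in the WT bottom 50%, with Mkx, Kera and Chodl at 0 in WT members. Thbs4, also a leading gene of the largest KO cell cluster, supplied 956 CPM of that sum in KO members, 893 in the KO bottom 50%, 936 in WT members and 563 in the WT bottom 50%. Tnmd, a defining marker, stood at 29.4 CPM in KO members and 12.3 in the KO bottom 50%, and at 4.50 and 6.57 CPM in WT. Fmod stood at 18.5 and 10.8 CPM in KO, and its log2 ratio of members over the bottom 50% was -0.65 in WT. Its part in the ratios below was not tested.

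Dysferlin gave no check of the genotype. Dysf had 14 UMIs over all ranked KO cells (95% Poisson interval 7.65 to 23.5) and 9 over all ranked WT cells (4.12 to 17.1), a CPM ratio of 1.17 with an interval of 0.472 to 3.06. No Dysf UMI fell in a member of either library, which allows up to 1.12 CPM in KO members and 1.47 CPM in WT members. A 3′ tag cannot show whether a transcript is broken further upstream.

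The share of UMIs from the 6 genes climbed smoothly across the ranked cells, with no gap at the threshold. Members had a median share of 1.08% in KO and 1.70% in WT, against 0.0358% in the KO bottom 50% and 0.0811% in the WT bottom 50%. The lowest member held 0.703% in KO and 1.22% in WT, and the highest cell left out held 0.699% in KO and the same rounded 1.22% in WT. The fifth member above the threshold held 0.716% in KO and 1.22% in WT, while the fifth cell below it held 0.686% and 1.20%. Members are therefore the upper end of a range and not a separate class.

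Fixing the share of members per library also fixes their number, so the libraries differ in the level instead. The median over all ranked cells was 0.147% in KO and 0.369% in WT. Only 81 KO cells (5.64% of ranked cells, exact binomial interval 4.51 to 6.97) reached the WT threshold, while 455 WT cells (29.7%, 27.4 to 32.0) reached the KO threshold. Members held 51.7% of all UMIs of the 6 genes in KO and 47.6% in WT. A median KO member had 131 such UMIs and a median WT member 148.5.

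**Figure D1:**
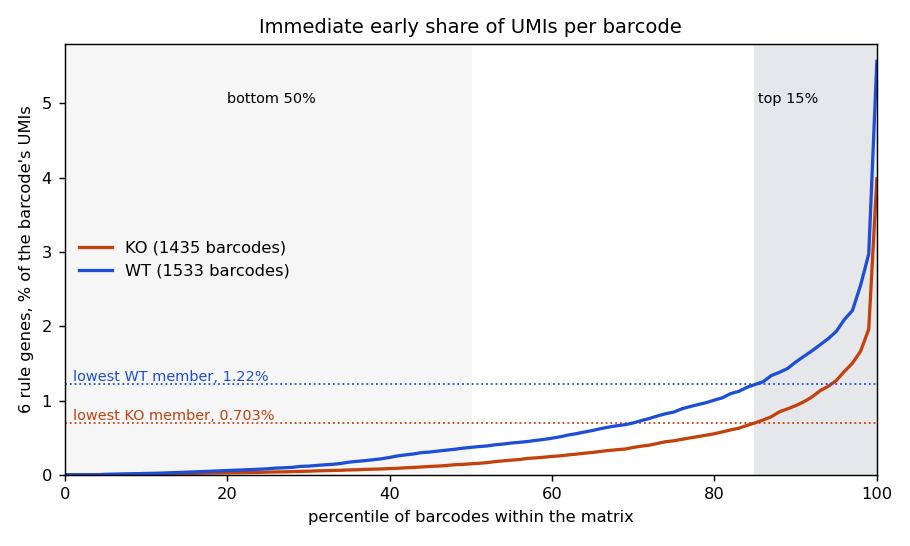
Share of a cell's UMIs from the 6 rule genes (y axis, percent) against the cell's percentile within its library (x axis), for KO and WT; dotted lines mark the lowest member of each. The WT curve lies above the KO curve over most of its length, and neither has a step at the top 15%, where the lowest members hold 0.703% (KO) and 1.22% (WT).

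As a description of what chose the members, each of the 6 genes was many times higher in them. Egr1 (chromosome 18, 34859823 to 34864984 on mm10) stood at 3360 CPM in KO members and 143 CPM in the KO bottom 50%, and at 5534 and 327 CPM in WT. Fos stood at 3372 and 91.1 CPM in KO and at 4822 and 253 CPM in WT. For Junb the levels were 2935 and 123 CPM in KO, and 4511 and 234 CPM in WT. Cells between these groups were intermediate, for example 961 CPM of Fos in KO and 1749 CPM in WT. Ier2, a nuclear regulator, Btg2, a partner of the deadenylase that shortens mRNA tails, and Zfp36, which binds AU-rich mRNA ends, had log2 ratios of 3.74, 4.23 and 4.73 in KO and 3.79, 3.63 and 4.29 in WT.

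Each of the 6 genes was also higher when it was left out of the score. The other 5 genes chose mostly the same cells, so this describes the score and is not independent support. With each left out of the score in turn and the top 15% chosen again from the other 5, Egr1 kept a log2 ratio of 3.86 in KO and 3.52 in WT, and Fos kept 4.13 and 3.55. Zfp36 had 4.51 in KO and 4.02 in WT. At least 190 of the 215 KO members and 201 of the 230 WT members were chosen again each time. Ier2 made up 6.00% of the rule gene UMIs in KO members and 9.17% in WT members, the largest gap in makeup between the libraries in relative terms, while Egr1 made up 28.2% and 28.7%.

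Outside the 6 genes, 5619 genes averaged at least 20 CPM over members and bottom 50% in both libraries and were described. A gene is called higher or lower when the CPM ratio is at least 1.5-fold, a criterion of size and not a test. In KO, 188 genes were higher (3.35% of those described) and 115 lower (2.05%). In WT, 263 were higher (4.68%) and 222 lower (3.95%). Both libraries shared 138 higher genes (2.46%), which is 73.4% of the KO set and 52.5% of the WT set. They shared 36 lower genes (0.641%), 31.3% of the KO set and 16.2% of the WT set. At a 2-fold criterion 72 genes were higher (1.28%) and 5 lower (0.089%) in both. Since the members were chosen on correlated genes of the same cells, these shares are the setting against which single lists are read below. Across the 5619 genes the ratios of the libraries had a Spearman rho of 0.435 and a Pearson r of 0.69, genes not being independent replicates, and the median log2 ratio was -0.08 in KO and -0.09 in WT.

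**Figure D2:**
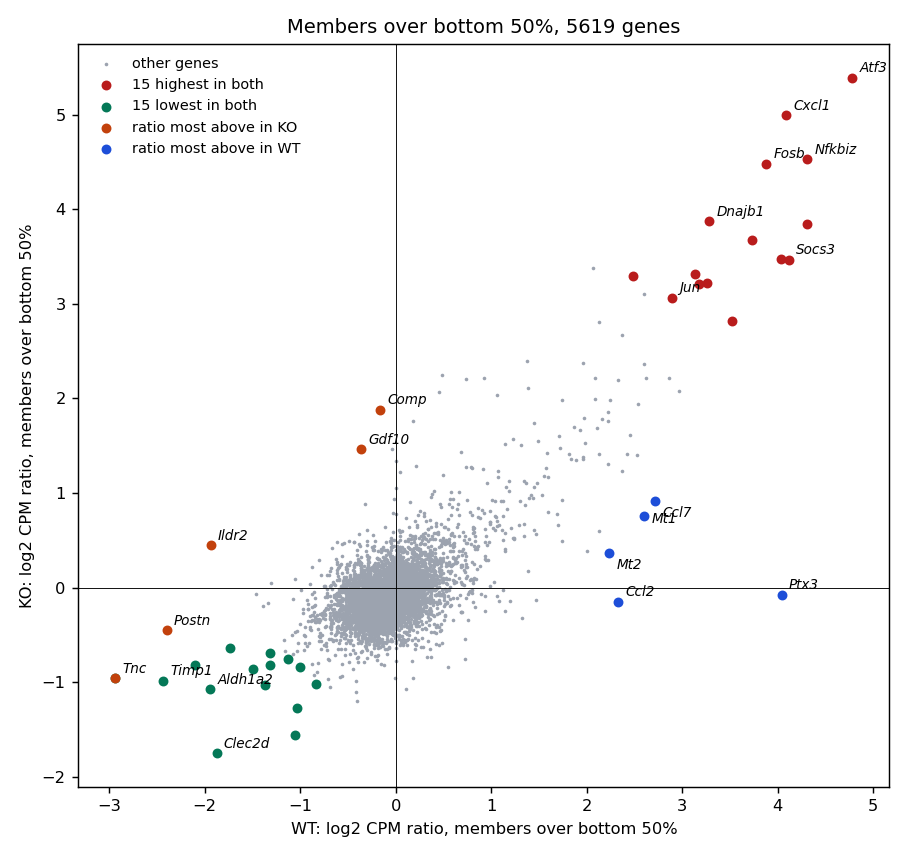
Log2 CPM ratio of members over the bottom 50% in KO (y axis) against WT (x axis), 1 point per gene for 5619 genes, with the named sets coloured. The early response genes lie along the diagonal at the upper right, Atf3 farthest out at 5.39 (KO) and 4.78 (WT), while Ptx3 lies far to the right at -0.073 in KO and 4.04 in WT, Mt1 and Mt2 lie below the diagonal, and Comp and Gdf10 above it.

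AP-1 subunits outside the rule were higher throughout. All 7 described of 8 listed genes passed 1.5-fold in both libraries, with a median log2 ratio of 1.55 in KO and 1.97 in WT. Atf3, a stress-induced AP-1 partner, headed all genes at 559 CPM in KO members and 13.3 CPM in the KO bottom 50%, a log2 ratio of 5.39 (95% counting interval 5.13 to 5.66). In WT it stood at 952 and 34.6 CPM, a log2 ratio of 4.78 (4.59 to 4.98). Fosb followed at 361 and 16.2 CPM in KO (4.48) and 453 and 30.7 CPM in WT (3.88). Jun, the main partner of Fos, reached 4084 and 488 CPM in KO (3.06) and 5449 and 733 CPM in WT (2.89). The small Maf proteins, which lack an activation domain, were smaller in ratio. Mafk had log2 ratios of 1.36 in KO and 1.97 in WT, and Maff 1.51 and 1.31. Fosl1, at most 1.13 CPM in any of these groups, was not described.

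Other immediate early transcription factors were higher for 10 of 11 described genes in each library, with a median log2 ratio of 1.35 in KO and 2.09 in WT. Nr4a1, an orphan nuclear receptor, stood at 276 CPM in KO members and 19.3 CPM in the KO bottom 50% (3.84), and at 249 and 12.6 CPM in WT (4.30). Its KO over WT ratio in members was 0.15 on the log2 scale, where most of this list was below 0. Ier3, a survival factor, had log2 ratios of 3.67 in KO and 3.73 in WT, and Csrnp1, a nuclear protein induced by AXIN1 in human cells, 3.47 and 4.04. Myc had 1.99 and 2.09. Klf10, induced by TGF-β, was the exception in both libraries, at 38.4 CPM in KO members and 38.7 in the KO bottom 50%, and 36.0 and 33.1 CPM in WT.

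Feedback genes, most of whose products damp the signal, moved with the activators. Of 9 described feedback genes, 7 were higher in KO (median log2 ratio 2.22) and 8 in WT (1.96). Nfkbiz, an inhibitor-like cofactor of NF-kappaB, stood at 203 CPM in KO members and 8.81 CPM in the KO bottom 50% (4.53), and at 319 and 16.1 CPM in WT (4.31). Socs3, which blocks cytokine receptors, stood at 551 and 49.8 CPM in KO (3.47) and 1080 and 62.1 CPM in WT (4.12). Dusp1, a phosphatase of MAP kinases, had log2 ratios of 2.81 in KO and 2.13 in WT. The NF-kappaB inhibitor Nfkbia had 2.22 and 2.09, and Tnfaip3, which edits ubiquitin chains in that pathway, 2.38 and 1.96. Sprouty genes, inhibitors of receptor tyrosine kinase signalling, were the weakest, with Spry1 at 0.31 and 0.63 and Spry2 at 0.10 and 0.39, so that only Spry1 in WT passed the criterion.

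Genes of mRNA decay, growth arrest and cell survival were higher for 10 of 11 described genes in KO and 9 of 11 in WT, with medians of 0.93 and 1.19. Gadd45b, which binds stress kinases, stood at 364 CPM in KO members and 51.7 CPM in the KO bottom 50% (2.81), and at 405 and 35.1 CPM in WT (3.53). Gadd45g had log2 ratios of 3.37 in KO and 2.07 in WT. Ppp1r15a, a phosphatase subunit that restores translation after stress, had 2.67 and 2.37, and Cdkn1a, the p21 inhibitor of cyclin-dependent kinases, 2.11 and 1.39. Zfp36l1, a relative of the rule gene Zfp36, had 1.13 and 1.19, whereas Zfp36l2 had 0.06 and 0.24. Cell cycle transcripts were low. The 10 cell cycle genes summed to 49.7 CPM in KO members and 185 in the KO bottom 50%, and to 52.0 and 63.4 CPM in WT, with only Pcna abundant enough to be described.

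Secreted and enzyme products of the early response were higher for 7 of 10 described genes in KO and 9 in WT, with medians of 1.17 and 2.51. Cxcl1, the neutrophil-attracting chemokine whose kappaB site is printed above, stood at 364 CPM in KO members and 11.4 CPM in the KO bottom 50% (log2 ratio 4.99, 4.71 to 5.29). In WT it stood at 522 and 30.7 CPM (4.09, 3.88 to 4.30). Cyr61, a matrix-associated signal induced by YAP and serum, had 3.21 in KO and 3.17 in WT. Has1, a hyaluronan synthase, had 3.32 and 3.13, and Ptgs2, the inducible prostaglandin synthase, 3.10 and 2.60. Edn1, the endothelin precursor, ran the other way at -0.34 and -0.88, and was lower by the criterion in WT, where its median within clusters was 0.27. Il6 was below the filter, at 49.7 CPM in KO members and 1.68 CPM in the KO bottom 50%, and 23.0 and 0.671 CPM in WT.

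Most cytosolic chaperones were higher in members, and most genes of the unfolded protein response were within the criterion. Of 13 heat shock genes, 9 were higher in each library, with medians of 1.57 in KO and 1.06 in WT. Dnajb1, the co-chaperone that feeds substrates to Hsp70, stood at 558 CPM in KO members and 38.1 CPM in the KO bottom 50% (3.87), and at 384 and 39.4 CPM in WT (3.29). Hspa1a, an inducible Hsp70, stood at 2987 and 566 CPM in KO (2.40) and 2385 and 921 CPM in WT (1.37). Its near-identical copy Hspa1b had 2.04 and 1.06, and reads of these copies may be divided between them. Hspb1 had 2.22 in KO and 0.93 in WT, and Hsph1 1.98 and 1.74. The mitochondrial chaperones Hspd1 and Hspe1 had ratios of 0.12 and 0.37 in KO and 0.18 and 0.03 in WT. For the unfolded protein response of the endoplasmic reticulum the medians were 0.03 and 0.12. Only Ddit3 passed the criterion in KO (0.79) and only Ddit3 (0.93) and Atf4 (0.96) in WT, while the lumenal chaperone Hspa5 had 0.25 and 0.44 and calreticulin (Calr) -0.31 and -0.35.

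**Figure D3:**
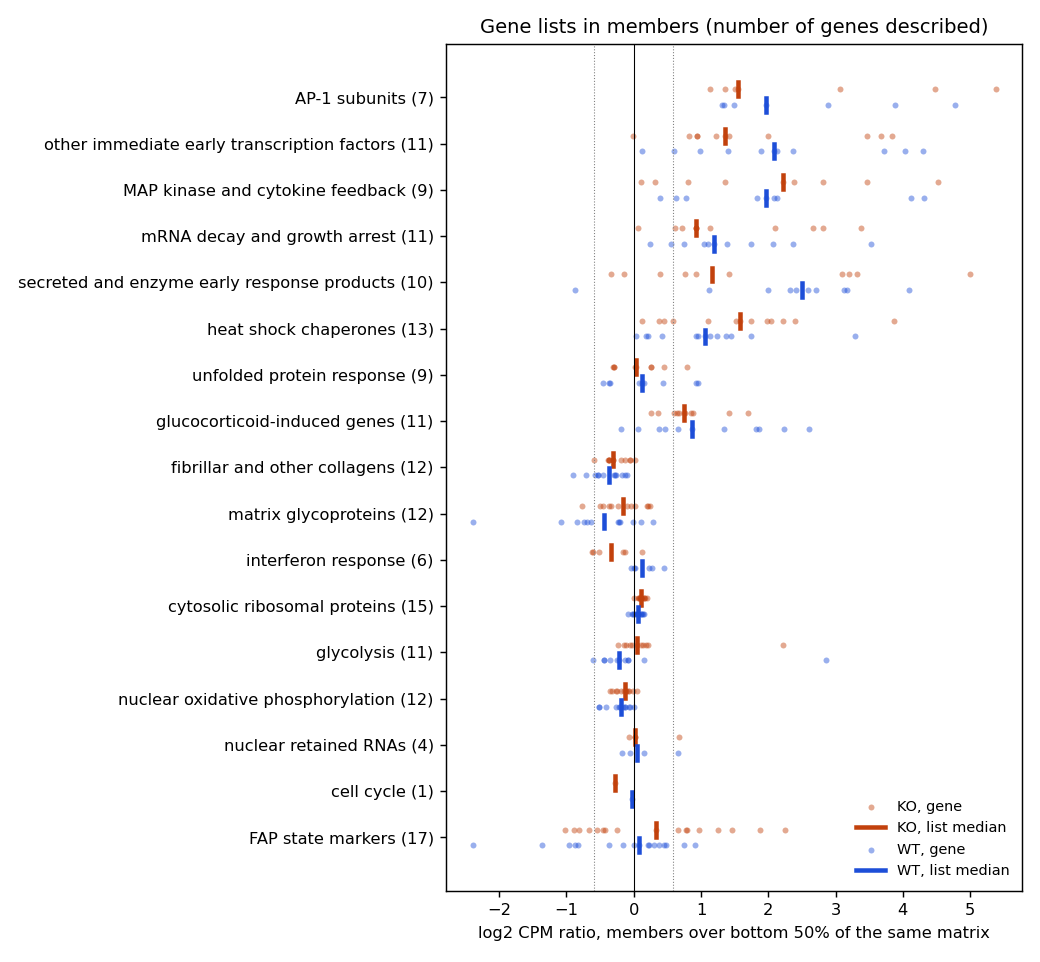
Log2 CPM ratio of members over the bottom 50% (x axis) for every described gene of each list (rows, with the number of genes), KO above WT in each row; bars mark list medians and dotted lines the 1.5-fold criterion. The first 6 lists and the glucocorticoid-induced genes sit to the right, with AP-1 medians of 1.55 (KO) and 1.97 (WT), while collagens, ribosomal, oxidative phosphorylation and nuclear RNA lists lie close to 0.

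Glucocorticoid-induced genes were higher for 9 of 11 described genes in KO and 7 in WT, with medians of 0.75 and 0.87. Cebpd and Cebpb, transcription factors that cytokines induce as well, led them where metallothioneins are set aside, with Cebpd at 1773 CPM in KO members and 545 in the KO bottom 50% (1.70) and 4113 and 1127 CPM in WT (1.87). Several genes known more strictly for the glucocorticoid receptor had smaller ratios. Tsc22d3 (GILZ) had 0.64 in KO and 0.37 in WT, Fkbp5 0.59 and 0.07, and Zbtb16 0.85 and 0.47, so that in WT none of these 3 passed the criterion. Per1, a clock gene, passed in both at 0.75 and 0.87. Sgk1, a kinase gene of the same list, also passed in both, at 0.67 in KO and 1.35 in WT.

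Metallothioneins, small proteins that bind zinc and copper, separated the libraries. Mt1 stood at 3080 CPM in KO members and 1817 CPM in the KO bottom 50%, and at 5414 and 892 CPM in WT, log2 ratios of 0.76 and 2.60. Mt2 stood at 1427 and 1109 CPM in KO (0.36) and 1879 and 399 CPM in WT (2.24). In the bottom 50% both genes were thus higher in KO, with log2 ratios of KO over WT of 1.03 and 1.47, while in members they stood at -0.81 and -0.40. Within clusters the gap was smaller, with medians for members over the bottom 50% of 1.73 (KO) and 2.95 (WT) for Mt1, and 1.25 and 2.21 for Mt2. The ratios differed by -1.84 for Mt1 (counting interval -1.90 to -1.78) and -1.87 for Mt2 (-1.96 to -1.78), KO minus WT, with no replicate to test it. Mt1 and Mt2 are close relatives and are read together here.

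AP-1 and most other early response lists climbed with the share below the threshold as well as at it. Cells of each library were divided into deciles by the share, and since that share ordered them the values are a description. The summed AP-1 genes outside the rule ran from 698 CPM in the lowest KO decile through 1363 in decile 5 to 7109 CPM in the highest, and from 892 through 3186 to 10891 CPM in WT. Heat shock genes ran from 3507 through 6056 to 14157 CPM in KO. In WT they stood at 4044 CPM in decile 1 and 13491 CPM in decile 8, with 12525 and 12076 CPM in deciles 9 and 10. Glucocorticoid-induced genes reached 8552 CPM in the highest KO decile and 17011 CPM in the highest WT decile, where Mt1 supplied 6191 CPM. The KO secreted list did not climb at each step, at 1455 CPM in decile 3, 1240 in decile 6 and 2917 in decile 10. The unfolded protein response stayed between 2459 and 3076 CPM in KO and between 2317 and 2874 CPM in WT over all deciles.

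**Figure D4:**
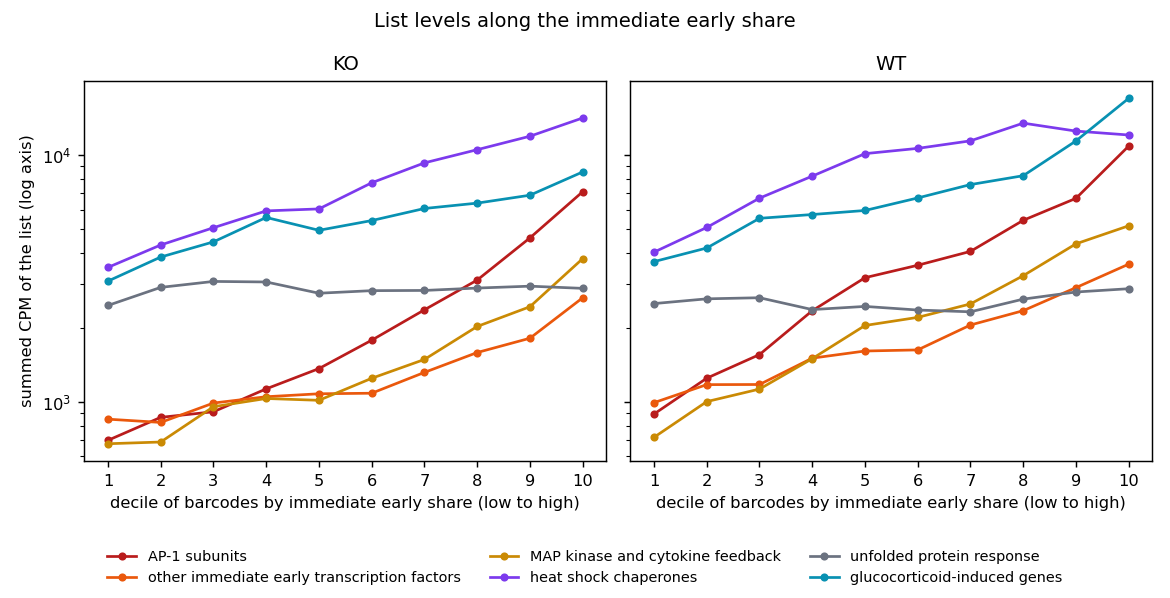
Summed CPM of 6 gene lists (y axis, log scale) in deciles of cells ordered by the immediate early share (x axis, low to high), KO left and WT right. AP-1 subunits climb at every step to 7109 (KO) and 10891 CPM (WT), heat shock genes level off in the last WT deciles, and the unfolded protein response is flat.

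Members did not all carry these genes alike. For Jun the 10% of members with most of it (22 KO and 23 WT cells) supplied 29.8% of the members' Jun UMIs in KO and 28.3% in WT, and the median member had 32.8 and 49.2 Jun UMIs per 10000, against 3.35 and 5.07 in the bottom 50%. For Atf3 the top 10% supplied 47.9% in KO and 43.0% in WT, with medians over all members of 2.54 and 5.10 UMIs per 10000. Cxcl1 was more uneven, at 54.5% and 61.1%, and Has1 more so at 63.1% and 84.5%, where the median member had 0 UMIs of it in both libraries. Ptx3, a pattern recognition protein, came almost wholly from the top 10%, 85.2% in KO and 97.0% in WT, and Ccl2 wholly, at 100% in both. The median member thus held Jun and Atf3, while Ptx3 and Ccl2 came from few.

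Genes lower in members of both libraries were fewer, matrix and cell-state genes among them. Tnc (chromosome 4), the matrix glycoprotein tenascin C, stood at 27.9 CPM in KO members and 54.0 CPM in the KO bottom 50% (-0.95, interval -1.33 to -0.60), and at 7.00 and 53.5 CPM in WT (-2.93, -3.82 to -2.17). Timp1, an inhibitor of matrix metalloproteinases, stood at 205 and 404 CPM in KO (-0.98) and 23.0 and 124 CPM in WT (-2.43). Clec2d, a lectin-like ligand of an NK cell receptor, had the most even ratio between the libraries among the strongest, at 53.5 and 180 CPM in KO (-1.75) and 49.5 and 181 CPM in WT (-1.87). Aldh1a2, which makes retinoic acid, had -1.08 in KO and -1.94 in WT. Sema3c, a guidance molecule, had -1.02 and -1.36, and H19, an imprinted non-coding RNA, -0.86 and -1.49. The remaining named genes of this kind were Limch1, Cmah, Smpd3, Efhd1, Mest, Ccl8, Sdk1, Gas7 and Il13ra1, with log2 ratios between -1.56 and -0.64 in KO and between -2.10 and -0.83 in WT.

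Within clusters several of these lower genes had other ratios. The clusters were built without the 6 rule genes and the early response lists, while heat shock and metallothionein genes stayed in. Those with at least 15 members and 15 bottom cells (6 KO and 4 WT clusters) and at least 10 UMIs of the gene were used. Clec2d stayed lower in 6 of 6 KO and 4 of 4 WT clusters, with median log2 ratios of -1.20 and -1.89. Timp1 was higher in members in 1 of 6 KO clusters (median -0.45) and in 2 of 3 WT clusters (median 0.16). H19, Sdk1 and Tnc kept medians past the criterion, at -1.68, -1.18 and -0.62 in KO and -1.34, -1.49 and -1.17 in WT. H19 was higher in members in 2 of 6 KO clusters, and Tnc was compared in 2 KO clusters and 1 WT cluster. Limch1 and Smpd3 had positive medians in KO (0.26 from 1 cluster and 0.47), and Cmah, Efhd1, Gas7 and Il13ra1 in WT (3.07 from 1 cluster, 0.15, 0.28 and 0.19). Mest and Sema3c were inside the criterion there in both libraries, at -0.16 and -0.58 in KO and -0.055 and -0.21 in WT. The higher genes behaved otherwise: Atf3, Cxcl1, Nfkbiz, Fosb, Nr4a1, Socs3, Dnajb1 and Jun were higher in 6 of 6 KO and 4 of 4 WT clusters, with medians for Atf3 of 5.01 and 4.80.

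Collagen transcripts were somewhat lower in members, mostly within the criterion. The median log2 ratio of 12 collagen genes was -0.30 in KO, where 0 passed, and -0.37 in WT, where Col3a1 (-0.91) and Col1a1 (-0.71) were lower. Col3a1 stood at 8213 CPM in KO members and 12307 CPM in the KO bottom 50%, and at 3001 and 5623 CPM in WT. Of 12 matrix glycoproteins, Fbn1 (fibrillin) was lower in KO at -0.77, and 6 were lower in WT, among them Postn (periostin, -2.40), Fn1 (fibronectin, -1.08) and Fbn1 (-0.70). Within clusters these glycoproteins were inside the criterion, with WT medians of 0.28 for Postn, -0.51 for Fn1 and -0.49 for Fbn1, and a KO median of -0.56 for Fbn1. Col3a1 stayed past it in WT at a median of -0.69, while Col1a1 had -0.31. Dcn, the small proteoglycan decorin, had 0.24 in KO and 0.29 in WT.

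Interferon-stimulated genes had a median below 0 in KO and above 0 in WT. Of 6 described genes, 2 were lower in KO (Oasl2 at -0.63 and Isg15 at -0.60) and 0 in WT, with medians of -0.34 and 0.13. Isg15, a ubiquitin-like modifier, stood at 82.9 CPM in KO members and 126 CPM in the KO bottom 50%, against 26.5 and 19.3 CPM in WT. Within clusters its KO median was 0.032, and that of Oasl2 -0.41. Housekeeping lists stayed near the median of all genes. Ribosomal protein genes had medians of 0.11 and 0.06, oxidative phosphorylation -0.13 and -0.18, glycolysis 0.05 and -0.22, and nuclear-retained RNAs 0.02 and 0.04. Hk2, the inducible hexokinase, stood apart in the glycolysis list, at 128 CPM in KO members and 27.6 CPM in the KO bottom 50% (2.21) and 139 and 19.2 CPM in WT (2.86).

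Markers of the Pi16-positive state, known as a universal fibroblast state, had lower pooled levels in members of both libraries. Pi16 stood at 429 CPM in KO members and 678 CPM in the KO bottom 50% (-0.66), and at 433 and 841 CPM in WT (-0.96). Dpp4, Cd55 and Sema3c, of the same state, had -0.89, -0.81 and -1.02 in KO and -0.82, -0.88 and -1.36 in WT. By the median within clusters only Dpp4 stayed past the criterion in both libraries (-0.83 in KO and -0.95 in WT). Pi16 had -0.64 in KO and 0.17 in WT, where it was higher in members in 3 of 4 clusters, Cd55 had -0.20 and 0.011, and Sema3c -0.58 and -0.21. Apoe, the lipid carrier, was higher in both at 1.25 and 0.92, and within clusters it had 1.23 and 0.52. Over the whole list of 22 markers, 17 were described, with 8 higher and 4 lower in KO and 2 higher and 5 lower in WT. Clu (2.25), Comp (1.88), Gdf10 (1.46), Inmt (0.96), Penk (0.79), Fmo2 (0.78) and Fst (0.66) were higher in KO and had 0.49, -0.16, -0.36, 0.37, 0.30, 0.00 and 0.22 in WT. Not all of these KO calls held within clusters. Clu, Comp, Gdf10 and Fst had KO medians of 1.35, 1.12, 1.03 and 0.63 there, but Inmt had -2.78 and was higher in members in 1 of 5 KO clusters, Penk had -0.082 and was higher in 1 of 6, and Fmo2 had 0.10.

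Clustering without the rule genes and the early response lists (75 genes left out) gave 14 clusters, and members were found in all that held at least 50 ranked cells, 7 in KO and 6 in WT. Heat shock, metallothionein and other genes higher in members stayed in, and their part in shaping the clusters was not tested. In KO their share in these ran from 8.54% to 32.8% with a median of 15.7%, and in WT from 5.07% to 24.4% with a median of 13.3%. Cluster 12, led by Kdr, Sfrp2 and Dkk2, had 15 members among 29 KO cells (51.7%, exact interval 32.5 to 70.6) and 17 among 78 WT cells (21.8%, 13.2 to 32.6). Cluster 6, led by Alkal2, Kcna2 and Cyp26b1, had 32.8% in KO (21.6 to 45.7) and 13.9% in WT (9.19 to 19.8). Cluster 3, led by Klf5, Cpe and Arhgdib and holding Clu and Comp among its leading genes, had 26.4% and 12.6%. Cluster 8, led by Inhbb, Bmp2 and P2ry1, had 27.0% in KO (19.0 to 36.3) and 24.4% in WT (20.7 to 28.4).

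At the other end stood clusters with few or no members. Cluster 4, led by Top2a and Mki67, had 0 members among 34 KO cells, which leaves room for a share of up to 10.3%. Cluster 10, led by Saa1 and holding Cthrc1 and Dlk1, had 0 among 16 KO and 0 among 42 WT cells (upper bounds 20.6% and 8.41%). Cluster 7, led by Wnt10b, Stmn4 and Dact2, had 5.07% in WT (2.80 to 8.36) over 276 cells and 10.5% in KO over 38. Clusters 9, led by mast cell genes, and 13, led by haemoglobin and endothelial genes, held 0 members too, but most of their cells were not bottom cells. Bottom cells made up 0 of the 44 KO cells of cluster 9. In cluster 13 they made up 0 of 2 KO and 7 of 39 WT cells. The other cells of clusters 9 and 13 lay between the bottom cells and the members. By contrast, bottom cells made up 29 of the 34 KO cells of cluster 4. In cluster 10 they made up 10 of 16 KO and 34 of 42 WT cells.

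The libraries filled these clusters differently, which bears on every comparison of KO with WT members. Cluster 0, led by C1qtnf3, Cpxm1 and Thbs4, held 74 of the 215 KO members (34.4%) but 1 of the 230 WT members, and 598 KO but 40 WT ranked cells. Cluster 8 held 120 of the WT members (52.2%) and 30 of the KO members. Cluster 11, led by Tenm2, Foxd1 and Sbspon, had 11 members among 14 WT cells and 1 KO cell, itself a member. Where 1 library fills a cluster, a state of the cells and a property of that library cannot be told apart.

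**Figure D5:**
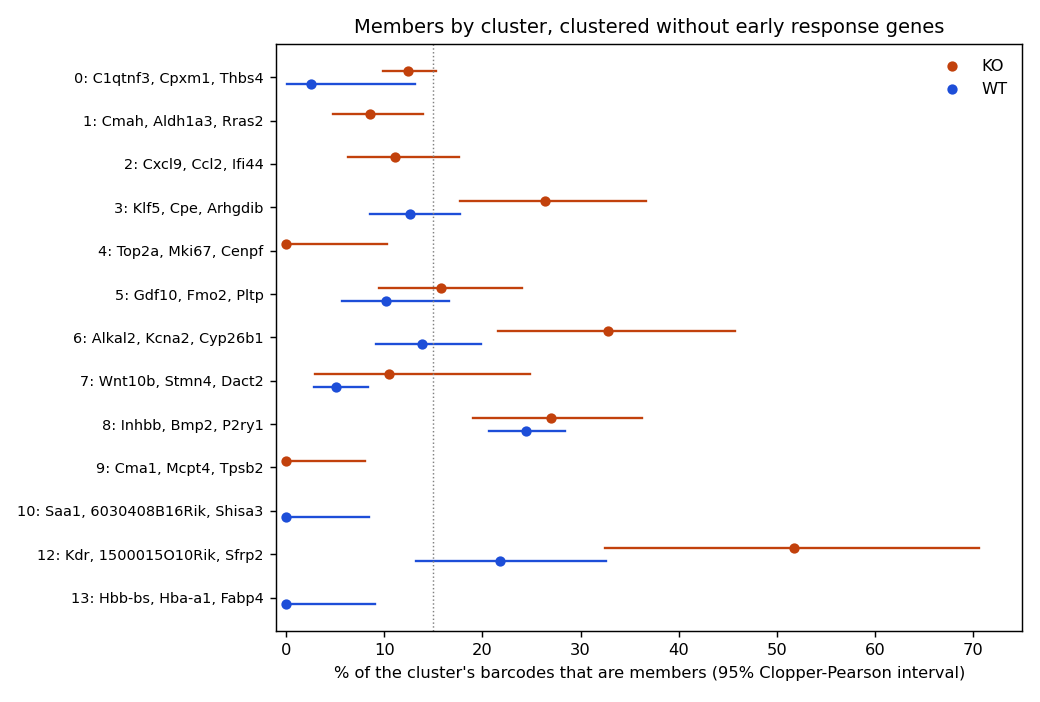
Percent of each cluster's ranked cells that are members (x axis), with exact 95% intervals, KO above WT, for clusters with at least 25 ranked cells of the library shown (rows, with 3 leading genes). The dotted line is the 15% that the rule sets over each library. Cluster 12 is highest in KO at 51.7%, cluster 8 highest in WT at 24.4%, and clusters 4 and 10 hold 0 members.

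Set beside each other, KO members and WT members differed by at least 1.5-fold in many genes. Of 5875 genes averaging at least 20 CPM over the members of both, early response and rule genes included, 435 were higher in KO members (7.4%) and 273 lower (4.65%). The bottom 50% gave 340 higher (5.79%) and 218 lower (3.71%) over the same genes, and 200 and 123 genes differed the same way in members and in the bottom 50%. Among the highest were Cxcl9, an interferon-γ-induced chemokine, at 230 CPM in KO members and 3.00 CPM in WT members, and Serpina3n, an acute-phase protease inhibitor, at 166 and 24.0 CPM. Lgmn, the lysosomal protease legumain, stood at 98.7 and 18.0 CPM, and the short non-coding RNA Bc1, whose genomic copies may share reads, at 248 and 43.0 CPM. These were as far apart in the bottom 50%, with log2 ratios there of 7.16, 2.86, 2.39 and 3.06, against 6.26, 2.79, 2.46 and 2.53 in members.

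Timp1, Postn and Emb were farther apart in members than in the bottom 50%. Timp1 had a log2 ratio of KO over WT of 3.15 in members and 1.70 in the bottom 50%, Postn 2.47 and 0.53, and Emb, a membrane glycoprotein, 2.85 and 1.24. Within the 4 clusters that had at least 15 members of each library, the median for Timp1 was 1.07 over 3 clusters, for Emb 1.40 over 4, and for Postn -1.47 over 3, so the direction for Postn turned round. Iigp1, Kng2 and Gm26771 complete the 10 highest, with log2 ratios of 2.82, 2.58 and 2.40.

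Among genes lower in KO members, Inmt, an amine methyltransferase, stood at 95.3 CPM in KO members and 407 CPM in WT members, and Bmp2, a bone morphogenetic protein, at 32.4 and 133 CPM. Zbtb16 stood at 130 and 510 CPM and Tsc22d3 at 281 and 975 CPM, both glucocorticoid-induced genes. Over that list 8 of 12 genes were lower in KO members, with a median log2 ratio of -1.10, and 7 were lower in the KO bottom 50%, with a median of -1.14. The others of the 10 lowest were Angptl7, Stmn4, Gm9780, Pgf, Arl4d and Lims2, with log2 ratios between -3.87 and -1.78.

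Early response transcription factors were lower in KO members or within the criterion, whereas more of the secreted products were higher than lower. KO members were also taken down to a lower share of the 6 genes than WT members (0.703% and 1.22%), and the part of this was not tested. Of 7 AP-1 subunits outside the rule, 3 were lower (Jund, Atf3 and Mafk at -1.08, -0.77 and -0.76) and 0 higher, with a median of -0.42. In the bottom 50% 4 of the 7 were lower and 0 higher, with a median of -0.59. Of 13 other immediate early transcription factors described here, 7 were lower and 0 higher, against 3 lower and 2 higher in the bottom 50%. Of 12 feedback genes 5 were lower and 1 higher, against 4 lower and 3 higher in the bottom 50%. Of 12 secreted and enzyme products 5 passed it upwards and 2 downwards, and the list median was 0.29 in members and 0.36 in the bottom 50%. Heat shock genes had 0 of 13 past the criterion, with a median of 0.17, while 3 were lower in the bottom 50%, with a median of -0.16. Collagens were higher for 7 of 12 genes with a median of 0.67, Col3a1 at 1.45 and Col1a1 at 1.37. In the bottom 50% 6 of the 12 collagens were higher, with a median of 0.55. Interferon-stimulated genes were higher for all 8 described, with a median of 0.98 in members and 1.49 in the bottom 50%.

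A few genes had ratios of members over the bottom 50% that differed most between the libraries. Comp, a cartilage and tendon matrix protein, stood at 91.5 CPM in KO members and 24.9 CPM in the KO bottom 50% (1.88), and at 40.5 and 45.2 CPM in WT (-0.16). The WT cells between these groups had 137 CPM of Comp, and against all other WT cells the ratio was -1.01. Gdf10, a TGF-β family ligand, stood at 82.5 and 29.9 CPM in KO (1.46) and 51.0 and 65.6 CPM in WT (-0.36). Ildr2 stood at 36.5 and 26.7 CPM in KO (0.45) and 11.5 and 44.0 CPM in WT (-1.94). For Postn the ratios were -0.45 in KO and -2.40 in WT, and for Tnc -0.95 and -2.93. These transcripts were unevenly spread over members. The top 10% of members supplied 67.7% of Postn UMIs in KO and 100% in WT, 98.6% and 100% for Tnc, where WT members held 14 UMIs in all, 94.2% and 100% for Comp, and 76.3% and 81.4% for Gdf10. Within clusters Postn had -0.43 in KO and 0.28 in WT, Gdf10 1.03 and 0.16, Comp 1.12 and -0.18, and Ildr2 0.76 and -0.45.

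The opposite side held secreted immune genes and the metallothioneins. Ptx3 stood at 99.4 CPM in KO members and 105 CPM in the KO bottom 50% (-0.073), and at 216 and 13.1 CPM in WT (4.04). Ccl2, a monocyte chemokine, stood at 283 and 314 CPM in KO (-0.15) and 103 and 20.5 CPM in WT (2.33), and Ccl7 had 0.92 in KO and 2.71 in WT. The KO value of Ccl7 rests on 22 cells that held 95.9% of its member UMIs, and it was -0.14 with the top 10% as members, -0.34 with mitochondrial UMIs at most 5% and -0.55 when thinned. As given above, 97.0% of the WT members' Ptx3 UMIs and all of their Ccl2 UMIs came from 23 cells. These ratios moved with the way cells were pooled. Averaged per cell and not over UMIs Ptx3 had 0.92 in KO, and within clusters it had a median of 3.26 over 4 KO clusters and 4.83 over 3 WT clusters. Ccl2 had 0.14 in WT with the top 10% as members, and within clusters it had -0.09 over 4 KO clusters and -0.84 in the 1 WT cluster with enough UMIs.

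Cells without a Pdgfra UMI were not ranked but met the other filters. In KO 27 of 149 such cells (18.1%, 12.3 to 25.3) and in WT 42 of 264 (15.9%, 11.7 to 20.9) had a share at or above their library's threshold. Their median depth was 3460 UMIs in KO and 3200 in WT.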

How the data were processed

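UMI counts per gene and cell barcode were used as deposited by the authors, 1 pooled matrix for KO and 1 for WT, from 10x Genomics 3′ v3 libraries. The submitters' processing notes list Cell Ranger 3.0.0, Seurat and mm10 without saying what Seurat did, and software version 3.0.2 is given per the file headers. How barcodes were called as cells is not stated in the labels or headers. UMIs were summed per gene over members and over the bottom 50%, and CPM totals left out the 6 rule genes. Log2 ratios carry exact conditional binomial 95% intervals, UMI sums exact Poisson intervals and shares Clopper-Pearson intervals. They cover counting error only, and no test was made. Depth was 21476948 UMIs in KO and 17642513 in WT.

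A gene was described if its CPM, averaged over members and bottom 50%, reached 20 in both libraries (for KO against WT, averaged over both sets of members), and 1.5-fold was the size criterion. Named genes were the 15 highest and 15 lowest by mean ratio among those past it in both libraries, the 10 highest and 10 lowest of KO over WT members, the 5 largest differences of ratios each way, and list genes. The members, lists and criteria were chosen with earlier results of these data known. Clusters came from scanpy 1.11.5 with leidenalg 0.10.2 (2000 variable genes, 30 components, 15 neighbours, resolution 0.8), and numpy 2.4.6, scipy 1.17.1 and pandas 2.3.3 were used. The ratio calculation was tested on simulated data. Alternatives changed the size of the top group, the filters, the depth, the weighting, the UMIs measured, the cells compared with and the clustering.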

Additional observations from a re-analysis of the deposited data

Results flagged for a closer look

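The 6 genes listed here had a ratio of members over the bottom 50% that ran one way in KO and the other in WT. They are Tslp and genes among the largest differences of ratios between the libraries. Other genes ran opposite ways too, such as Mme (-0.42 in KO and 0.45 in WT) and Tpi1 (0.21 and -0.60). The counting interval spanned both directions for Ptx3 in KO (-0.27 to 0.12) and Comp in WT (-0.53 to 0.20). None of these differences could be tested with 1 library per group. Tslp, an epithelial and stromal cytokine that is outside the rule for named genes and was picked after its values were seen, was the only gene past 1.5-fold in opposite directions, at -0.75 in KO and 0.72 in WT, with 19.2 CPM in KO members, 32.4 in the KO bottom 50%, 37.0 in WT members and 22.4 in the WT bottom 50%. Ildr2 had log2 ratios of 0.45 in KO and -1.94 in WT. For Comp they were 1.88 and -0.16, and for Gdf10 1.46 and -0.36. Ptx3 had -0.073 in KO and 4.04 in WT, and Ccl2 -0.15 and 2.33. Averaged per cell, and within clusters, Ptx3 was higher in KO members too (0.92 and 3.26). Within clusters Gdf10 had 1.03 in KO and 0.16 in WT and Ccl2 -0.09 and -0.84, so these 3 genes had the same sign in both libraries there, while Comp had 1.12 and -0.18 and Ildr2 0.76 and -0.45.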

How the results depend on the processing

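No paired analysis was possible because each matrix pools its samples with no map from cells to samples, and leaving out a replicate was not run for the same reason. Of the counts, shares and list medians recomputed, 482 were classed as unchanged and 36 as moved, all but 1 of the latter counts of genes. A pair of list medians crossed the size criterion. A list median was classed as unchanged if it stayed on the same side of that criterion, so its value may still have shifted. Genes higher in members of both libraries, 138 as reported, numbered 622 with no filter beyond 1 UMI, and 134 of the 138 stayed so with mitochondrial UMIs at most 5%, 129 with the top 10% as members, 120 with separate UMIs choosing and measuring, and 109 by the median within clusters. Genes lower in both were less stable. They numbered 19 with the top 25%, 69 thinned to 3000 UMIs, 13 at 50 CPM, 409 with no filter and 18 against all other cells, and only 10 of the 36 stayed so by the median within clusters.

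Thinned to 3000 UMIs, genes higher and lower numbered 296 and 432 in KO, 467 were lower in WT, and KO over WT members gave 835 and 513. At 50 CPM, 120 and 28 were higher and lower in KO, 149 and 77 in WT, and 178 and 144 in KO over WT members. With no filter the numbers were 1297 and 1322 in KO, 1519 and 1528 in WT, and 2216 and 1517 for KO over WT. Genes lower in KO and in WT numbered 224 and 346 with the top 10%, 61 and 102 with the top 25%, 224 and 350 with separate UMIs, and 266 and 439 within clusters. Against all other cells 54 were lower in KO. For KO over WT members, 410 were lower with separate UMIs, and 823 and 493 were higher and lower within clusters, a setting added after seeing the data. The KO glucocorticoid list median was 0.55 against all other cells, just under the criterion, and the KO cell cycle median was -0.83 with no filter. At Leiden resolution 0.5 the fullest cluster held 43.9% of WT members.

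Some named genes changed direction, and the cause was not tested. By the median within clusters Limch1 and Smpd3 had 0.26 and 0.47 in KO, while Timp1, Cmah, Efhd1, Gas7, Il13ra1, Postn and Ccl2 had 0.16, 3.07, 0.15, 0.28, 0.19, 0.28 and -0.84 in WT, and Postn had -1.47 for KO over WT members. Ccl8 in KO had 0.068 when thinned. Ccl7 in KO had -0.14 with the top 10%, -0.34 with mitochondrial UMIs at most 5% and -0.55 when thinned.

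Depth limits the genes under 20 CPM, where a KO member total allows 1.12 CPM at a count of 0 and a WT total 1.47 CPM. Sets without the shared barcodes, without Scrublet doublets and without clusters of proliferating, mast cell and endothelial genes were added after seeing the data and kept 137, 136 and 136 of the 138 higher genes.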
